A study of Mus musculus with 15 samples.

Results

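The genes of cholesterol synthesis, uptake and efflux were followed in mouse mammary tumour spheres treated with inhibitors of the Wnt and MET pathways. The set held 32 genes, chosen by name from the pathway: 18 synthesis enzymes and 14 regulators, transporters and related genes. Of these, 29 had a probe set of their own on the arrays, among 18193 genes measured in all. They comprised 17 of the enzymes and 12 of the other genes; Acat2, Nr1h2 and Soat1 were not analysed here. Where a gene had several probe sets, the one with the highest mean signal stood for it.

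Cells make cholesterol from acetyl-CoA by way of mevalonate, the isoprenoid diphosphates, squalene and lanosterol, with one enzyme for almost each step. When membranes run low in sterol, SCAP escorts the SREBP transcription factors out of the endoplasmic reticulum to be cut and activated, and they raise the synthesis genes together; INSIG proteins hold SCAP back when sterol is plentiful. When sterol or its oxidised products build up, the nuclear receptors LXR raise the exporters ABCA1 and ABCG1, which are abundant in macrophages.

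Mammospheres are clusters that grow from single tumour cells without attachment. The tumours were primary ones, of the FVB/N strain and the genotype WAPCre-DNbcatn;HGF; the spheres grew for 7 days, and were exposed to an agent for 24 h; 250 ng of total RNA went onto each Affymetrix array. Every group, vehicle included, carried this genotype, in which the name WAP is that of the milk protein promoter active in secretory mammary epithelium. The 15 arrays formed 5 groups of 3. A second set, marked by its own code in the titles, held PHA+ICG spheres and DMSO (vehicle) spheres, and the first set held PHA spheres, ICG spheres and DMSO spheres of its own. From general knowledge and not from the labels, ICG stands for a blocker of β-catenin-driven transcription and PHA for an inhibitor of the MET kinase; full names, doses and the animals' ages are not given in the sources used here. The labels do not say whether same-group arrays came from separate animals or cultures, so the p-values reflect array-to-array spread alone, and that spread may be technical. Values are log2 signals, on which 1 unit is a doubling.

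Array medians lay between 5.74 and 5.93. The arrays of the second set varied more within their groups than those of the first, with a mean residual SD of 0.339 against 0.135, so each treatment was fitted within its own set. Replicate 1 of both second-set groups stood apart in cell-type markers: the 10 macrophage markers averaged 8.79, 6.94 and 7.00 in the PHA+ICG spheres, and 9.93, 7.93 and 7.83 in the DMSO spheres of that set. Of markers for the labelled mammary tissue, the 8 epithelial genes averaged between 7.16 and 9.62 on all 15 arrays, while fibroblast and macrophage markers were also high. The RNA of whole spheres thus held transcripts of genes typical of several cell types, and which cells they came from was not tested. Of the 5 endothelial markers, Tek, Emcn and Pecam1 lay between the 8.66th and 13.6th percentile of all genes by mean signal, while Cdh5 lay at the 30.7th and Kdr at the 50.7th. In such bulk samples fewer cells of a type and less RNA per cell cannot be told apart.

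The DNA just before the start sites of the enzyme genes is shown first, as a description. Whether its letters bear on the results that follow was not tested. RefSeq promoter windows of 300 bases (250 before the start, 50 after; build GRCm38.p6) were matched by symbol to 23 of the 29 genes, 14 enzymes and 9 others. CCAAT, the box bound by NF-Y, a factor known to act beside SREBP, was searched on both strands. It lay in the windows of 14 of 14 enzymes (100%) and of 6 of 9 other members (66.7%), against 41.1% of 27025 genes with a window; a gene with several windows was counted once if any held the box, and 2 of these enzymes had several. A box began within the 100 bases before the start in 13 of the 14 enzymes (92.9%) and in 4 of the 9 other members (44.4%), against 22% of all genes with a window. An SRE-like motif, TCACNCCAC, was found in Hmgcs1 alone among the enzymes (7.14%), at position −137 from the start, against 1.44% of all genes. The LXR element, a spaced pair of AGGTCA half-sites, was in 0 of the 23 windows and in 0.0148% of all genes. These motifs did not overlap one another as written, and a match or its lack describes letters in this window only.

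The 250 bases before the start are printed 5′ to 3′ on the gene's strand, with capitals for the NF-Y box, which reads ATTGG where it lies on the other strand, and for the SRE-like match. The first 4 are enzymes with large changes below in at least 1 comparison, picked as examples. Others with large changes and a window, such as Msmo1 and Nsdhl, are not printed. Abca1, an exporter, has none of the motifs.
Hmgcs1, chr13:119690101-119690350, plus strand: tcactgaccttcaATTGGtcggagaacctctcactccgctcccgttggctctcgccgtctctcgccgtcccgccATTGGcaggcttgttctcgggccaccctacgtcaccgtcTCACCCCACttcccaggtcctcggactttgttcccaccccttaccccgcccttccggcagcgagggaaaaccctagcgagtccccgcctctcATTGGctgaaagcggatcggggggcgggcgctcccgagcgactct
Idi1, chr13:8885356-8885605, plus strand: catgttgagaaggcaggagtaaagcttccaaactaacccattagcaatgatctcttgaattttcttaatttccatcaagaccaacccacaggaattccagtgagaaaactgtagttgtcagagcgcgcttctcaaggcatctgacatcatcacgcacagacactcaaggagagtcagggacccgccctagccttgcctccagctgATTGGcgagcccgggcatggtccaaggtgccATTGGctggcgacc
Cyp51, chr5:4104698-4104947, minus strand: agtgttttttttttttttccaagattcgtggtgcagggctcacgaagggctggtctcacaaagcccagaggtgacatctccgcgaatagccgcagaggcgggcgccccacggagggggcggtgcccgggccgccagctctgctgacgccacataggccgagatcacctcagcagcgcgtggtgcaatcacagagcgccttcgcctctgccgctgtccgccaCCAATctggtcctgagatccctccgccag
Tm7sf2, chr19:6067851-6068100, minus strand: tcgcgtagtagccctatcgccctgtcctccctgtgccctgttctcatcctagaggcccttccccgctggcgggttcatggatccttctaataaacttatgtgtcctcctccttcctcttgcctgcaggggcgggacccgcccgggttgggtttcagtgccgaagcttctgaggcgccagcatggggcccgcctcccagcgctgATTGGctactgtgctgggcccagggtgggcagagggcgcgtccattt
Abca1, chr4:53159896-53160145, minus strand: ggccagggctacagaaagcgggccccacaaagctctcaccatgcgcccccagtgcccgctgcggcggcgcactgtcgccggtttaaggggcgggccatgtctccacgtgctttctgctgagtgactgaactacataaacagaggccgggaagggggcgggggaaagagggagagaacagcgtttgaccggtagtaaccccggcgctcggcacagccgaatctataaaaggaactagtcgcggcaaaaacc

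The vehicle spheres of both sets differed in the enzymes before any inhibitor is considered, by a larger median than in any of the treatments. In DMSO spheres of the second set, 15 of 17 synthesis enzymes were higher than in DMSO spheres of the first, and none was lower, also at an unadjusted p under 0.05. Over the 29 genes, 19 were higher and 3 lower, where 11.8% of all genes were called higher and 11.8% lower (limma, Benjamini-Hochberg adjusted over all genes, threshold 0.05). The median log2 difference over the enzymes was 1.72, against 0.06 over all genes. Every array of the second set lay above every array of the first in 16 of the 17 enzymes, which 23.7% of all genes did. Set, culture and any separate normalization cannot be told apart here.

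Idi1, which isomerises isopentenyl diphosphate, showed the largest difference. Its signal was 11.08, 11.36 and 11.29 in second-set DMSO spheres, against 7.39, 7.59 and 7.56 in first-set DMSO spheres. The groups lay far apart, at a log2 difference of 3.73 ± 0.17 (SE), a 13.3-fold higher signal (adjusted p = 5.38e-10).

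Cyp51, the lanosterol demethylase, had 10.17, 10.94 and 11.06 in second-set DMSO spheres, against 6.97, 7.50 and 7.48 in those of the first set. In both groups replicate 1 was the lowest, and the difference of 3.41 ± 0.26 was 10.6-fold (adjusted p = 1.89e-07). Sqle, the squalene epoxidase that is a rate-limiting step, had 10.65, 10.63 and 10.72, against 7.56, 7.66 and 7.76. Its arrays were tight in both sets, with a difference of 3.01 ± 0.18 and a fold of 8.03.

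Msmo1, which removes methyl groups from the sterol ring, had 11.31, 11.69 and 11.51 in second-set DMSO spheres, against 8.66, 8.56 and 8.58 in first-set ones (2.91 ± 0.23). The other called enzymes differed by 0.85 (Mvk, mevalonate kinase) to 2.37 (Fdps, farnesyl diphosphate synthase). Only 2 enzymes were not called: Ebp, a sterol isomerase, at 0.17, and Dhcr7, the last reductase of one branch, at −0.06. By stage, 4 of 4 enzymes up to mevalonate decarboxylation were higher (median 0.93), 5 of 5 isoprenoid and squalene enzymes (2.37) and 6 of 8 lanosterol-to-cholesterol enzymes (1.63).

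Regulators partly went with the enzymes. Insig1, itself a target of SREBP, had 10.14, 10.25 and 10.39 in second-set DMSO spheres, against 8.08, 8.24 and 8.24 in first-set DMSO spheres (2.07 ± 0.13, adjusted p = 2.25e-08). Srebf2, the SREBP most tied to cholesterol genes, was higher by 0.96 ± 0.13, Insig2 by 0.61 ± 0.13 and the sterol carrier gene Stard4 by 1.38 ± 0.20. The Insig2 call was lost without replicate 3 of the second-set DMSO spheres. Srebf1 (0.33, adjusted p = 0.385) and Scap (−0.04, adjusted p = 0.901) were not called.

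The exporters went the other way. Abcg1 had 10.25, 9.20 and 9.10 in second-set DMSO spheres, against 11.64, 11.66 and 11.84 in first-set ones, with replicate 1 of the second set nearest to the first set. It was lower by 2.20 on the log2 scale (log2 difference −2.20 ± 0.21, adjusted p = 2.03e-06). Abca1 was lower too (−1.46 ± 0.19, adjusted p = 3.18e-05), as was Mylip, the ligase that marks lipoprotein receptors for breakdown (−0.73 ± 0.21, adjusted p = 0.0185), although Mylip's call was lost without replicate 2 or without replicate 3 of the second-set DMSO spheres. Nr1h3, one of the LXR genes, was not called (0.64, adjusted p = 0.0519). It had 8.09, 6.73 and 6.86 in second-set DMSO spheres, against 6.63, 6.56 and 6.56 in first-set ones, so replicate 1 of the second set stood apart.

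Macrophage markers moved with the exporters: 9 of 10 were lower in the second-set DMSO spheres (median −2.85), and their mean was 9.93, 7.93 and 7.83 there, against 10.52, 11.06 and 11.12 in the first set. Fibroblast markers were higher in 6 of 9 cases (median 1.57), averaging 13.05, 12.73 and 12.70 against 10.99, 11.57 and 11.57. Epithelial markers were higher in 2 of 8 cases and lower in 1 (median 0.57), averaging 9.62, 8.55 and 8.59 against 8.44, 8.33 and 8.31. The part of cell makeup in these differences was not tested. Without replicate 1 of both second-set groups, the pair with more macrophage markers, 15 enzymes were again higher. That fit kept the second-set DMSO arrays with macrophage means of 7.93 and 7.83. These lie further from the first set than the 9.93 left out, so the fit is no test of cell makeup.

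**Figure D1:**
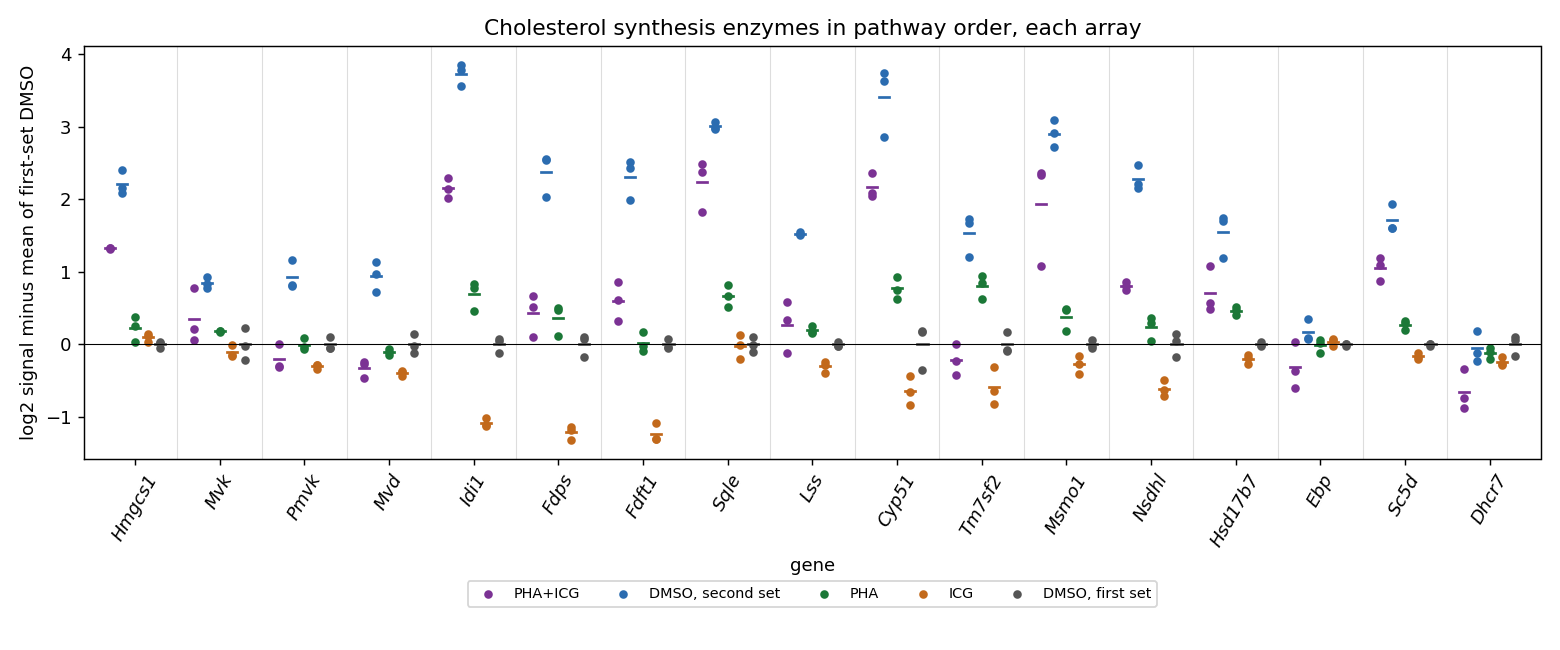
Log2 signal of synthesis enzymes on each array (points, coloured by group; vertical axis, minus the mean of the first-set DMSO arrays) with the group mean (line), by gene in pathway order along the horizontal axis. For Idi1 the second-set DMSO arrays lie 3.73 above first-set DMSO on average, with the PHA+ICG and PHA arrays between them and the ICG arrays below.

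PHA alone went with modestly higher enzyme signals. In PHA spheres 7 of 17 enzymes were higher than in first-set DMSO spheres and none was lower, also at an unadjusted p under 0.05. At that unadjusted p 10 were higher, while 4634 of all 18193 genes passed it in either direction. Over the 29 genes 7 were higher and 1 lower, where 3.14% of all genes were called higher and 7.07% lower. The enzymes' median log2 change was 0.24, against 0.02 over all genes. All 3 PHA arrays lay above all 3 DMSO arrays in 9 enzymes, which 15.4% of all genes did.

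Tm7sf2, a sterol reductase gene, had 7.65, 7.75 and 7.44 in PHA spheres, against 6.73, 6.71 and 6.98 in DMSO spheres. The groups did not overlap, and the rise of 0.80 ± 0.13 was 1.74-fold (adjusted p = 0.00491). Cyp51 had 8.07, 8.25 and 7.95, against the first-set DMSO values already given, a rise of 0.77 ± 0.15 (adjusted p = 0.0114). Its call was lost without PHA replicate 2.

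Idi1 had 8.29, 8.34 and 7.97 in PHA spheres, against 7.39, 7.59 and 7.56 in DMSO spheres, a rise of 0.69 ± 0.10 (adjusted p = 0.00227). Sqle had 8.33, 8.48 and 8.18 in PHA spheres, against 7.56, 7.66 and 7.76 in DMSO spheres (0.67 ± 0.10, adjusted p = 0.00314). For both genes replicate 3 was the lowest PHA array, yet above every DMSO array.

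Msmo1 had 9.09, 9.07 and 8.78 in PHA spheres, and Sc5d, a sterol desaturase gene, had 8.98, 9.01 and 8.89 there, against 8.70, 8.67 and 8.69 in DMSO spheres for Sc5d. The rises were 0.38 ± 0.10 (adjusted p = 0.0323) for Msmo1 and 0.27 ± 0.06 (adjusted p = 0.0175) for Sc5d, and Hsd17b7, a keto-sterol reductase gene, rose by 0.46 ± 0.06 (adjusted p = 0.00142). The Msmo1 call was lost without PHA replicate 1 or 2 or without DMSO replicate 2 or 3, and that of Sc5d without PHA replicate 1 or 2 or without DMSO replicate 2. A dimmer Sc5d probe set showed −0.05.

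The steps before isopentenyl diphosphate moved little. Hmgcs1, the HMG-CoA synthase that opens the pathway, had 10.08, 10.20 and 9.85 in PHA spheres, against 9.85, 9.77 and 9.83 in DMSO spheres. Replicate 3 of PHA lay within the DMSO range, and the difference of 0.22 ± 0.09 missed the threshold (adjusted p = 0.143). Of the 4 enzymes of this stage none was called in PHA spheres.

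Fdps (0.36 ± 0.11, adjusted p = 0.0727) and Fdft1, the squalene synthase gene (0.02 ± 0.09), were not called with PHA. For Lss, the cyclase that makes lanosterol, the probe set used gave 0.20 while a dimmer one gave −0.51 and was called lower (adjusted p = 0.0197), so its direction is unsettled. Values of dimmer probe sets come from a fit over all 34945 probe sets with 1 symbol, adjusted over those. In that fit 4 of 58 calls of these genes against DMSO or between DMSO groups missed the threshold: Nr1h3 with PHA (adjusted p = 0.0562), Hsd17b7 (0.058) and Npc2 (0.0815) with ICG, and Cyp51 with PHA+ICG (0.051). Without PHA replicate 2, 4 of the 29 genes were called higher, and without PHA replicate 3 there were 9. Of all genes, 271 and 350 were called higher in these fits, against 572 in the main fit.

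Regulators and transporters gave no call in PHA spheres, with differences from −0.22 (Npc1, the lysosomal cholesterol exporter) to 0.23 (Insig1, adjusted p = 0.0881). Nr1h3 was lower by 0.25 on the log2 scale (−0.25 ± 0.06, adjusted p = 0.032), a call that did not survive leaving out any one of the 6 arrays. The main Abcg1 probe set gave −0.12, and a dimmer one was called lower at −0.51. Macrophage markers were lower in 3 of 10 cases in PHA spheres (means of 10.51, 10.42 and 10.26, against 10.52, 11.06 and 11.12 in DMSO spheres), fibroblast markers in 5 of 9 and epithelial markers in 2 of 8, and their part in these results was not tested.

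ICG alone went with lower enzyme signals. In ICG spheres 10 of 17 enzymes fell against first-set DMSO spheres and none rose, also at an unadjusted p under 0.05. Over the 29 genes 15 were lower and 3 higher, where 15% of all genes were called lower and 11.9% higher. The enzymes' median log2 change was −0.30, against 0.03 over all genes. All ICG arrays lay below all DMSO arrays in 13 enzymes, against 20.4% of all genes.

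The isoprenoid and squalene steps fell most, in 4 of 5 genes with a median of −1.08. Fdft1 had 7.61, 7.39 and 7.39 in ICG spheres, against 8.65, 8.77 and 8.66 in DMSO spheres. Every ICG array lay about a unit below every DMSO array, a change of −1.23 ± 0.09 (adjusted p = 1.65e-05).

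Fdps had 7.80, 7.85 and 7.67 in ICG spheres, against 8.81, 9.05 and 9.08 in DMSO spheres (−1.21 ± 0.11, adjusted p = 6.2e-05). Idi1 had 6.39, 6.50 and 6.40, against 7.39, 7.59 and 7.56 (−1.08 ± 0.10, adjusted p = 5.78e-05). Both fell to below 0.5 of the DMSO signal. Sqle, although in the same stretch of the pathway, had 7.46, 7.79 and 7.65 in ICG spheres, which overlapped the DMSO values (−0.03 ± 0.10, adjusted p = 0.886).

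After lanosterol, 4 of 8 enzymes fell. Cyp51 had 6.89, 6.66 and 6.48 in ICG spheres, against 6.97, 7.50 and 7.48 in DMSO spheres, so ICG replicate 1 came close to DMSO replicate 1 (−0.64 ± 0.15, adjusted p = 0.0116). Nsdhl, a sterol dehydrogenase gene, had 7.58, 7.66 and 7.80 in ICG spheres, against 8.11, 8.33 and 8.43 in DMSO spheres (−0.61 ± 0.11, adjusted p = 0.00213). Tm7sf2 had 6.17, 5.99 and 6.50 in ICG spheres, all below the DMSO arrays (−0.59 ± 0.13, adjusted p = 0.0091).

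Hsd17b7 fell by 0.20, a call lost when any of 6 arrays was left out in turn. Msmo1, at 8.20, 8.33 and 8.44 in ICG spheres, missed the threshold (−0.28, adjusted p = 0.0566), as did Sc5d, at 8.49, 8.52 and 8.57 (−0.16, adjusted p = 0.0728). Before isopentenyl diphosphate, Mvd, the mevalonate diphosphate decarboxylase gene, fell by 0.39 and Pmvk, phosphomevalonate kinase, by 0.30. A slightly dimmer Mvd probe set gave −0.21 and was not called. Hmgcs1, at 9.85, 9.97 and 9.94, did not pass the test (0.10 ± 0.09, adjusted p = 0.456).

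Of the SREBP regulators, Insig1 had 7.48, 7.57 and 7.52 in ICG spheres, against 8.08, 8.24 and 8.24 in DMSO spheres, a clear gap (−0.67 ± 0.07, adjusted p = 0.000159). Srebf2 fell by 0.39 (adjusted p = 0.00147) and Srebf1 by 0.28 (adjusted p = 0.0128), while Insig2 rose by 0.33 (adjusted p = 0.00709). Slightly dimmer Insig2 probe sets (means of 9.13 and 8.90, against 9.25) gave 0.03 and 0.24 and were not called. The Srebf1 call was lost without replicate 2 of the first-set DMSO spheres.

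Stard4 fell by 0.97 ± 0.11 (adjusted p = 0.000141), to 5.76, 5.97 and 5.79 in ICG spheres, against 6.58, 6.91 and 6.95 in DMSO spheres. Npc1 rose by 0.44 ± 0.09 (adjusted p = 0.00393), with 10.01, 10.29 and 10.10 in ICG spheres, against 9.74, 9.72 and 9.61 in DMSO spheres. Npc2, its soluble partner, was called higher at 0.17 and Mylip lower at −0.25, both calls that single arrays could undo.

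No efflux gene was called in ICG spheres, where at an unadjusted p under 0.05 the exporters were higher. That unadjusted p was passed by 6890 of all 18193 genes, in either direction. Abcg1 had 11.81, 12.05 and 11.95, against 11.64, 11.66 and 11.84 in DMSO spheres, with a slight overlap (0.22 ± 0.08, adjusted p = 0.0637). Abca1 stood at 0.24 ± 0.09 (adjusted p = 0.0595). A second, dimmer Abcg1 probe set was called higher at 0.44, while the dimmer ones of Abca1 gave −0.04 and −0.22 and were not called. Macrophage markers fell in 7 of 10 cases in ICG spheres (means of 9.89, 9.93 and 9.51, against 10.52, 11.06 and 11.12 in DMSO spheres) and fibroblast markers in 8 of 9. Epithelial markers fell in 4 of 8 cases (median −0.27), averaging 8.23, 8.21 and 8.15 in ICG spheres, against 8.44, 8.33 and 8.31 in DMSO spheres. Of 4 adipocyte markers 1 was lower, Fabp4, a fatty-acid binding protein gene (−1.45 ± 0.12, adjusted p = 2.67e-05), and 1 was higher. Of these markers 3 lay above 0 (median 0.14). The part of these in the enzymes' fall was not tested.

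The balance of calls in the first set depended on scaling. In PHA spheres 30.8% of all calls were higher as deposited, 45.1% after quantile normalization and 55.9% after centring each array on its median. In ICG spheres the shares were 44.2%, 52.3% and 61.8%. Under both scalings PHA had 10 of the 29 genes higher and 0 lower. Of all 18193 genes, PHA had 897 higher and 1093 lower after quantile normalization, and 1188 higher and 938 lower after centring. ICG had 14 of the 29 genes lower and 4 higher after quantile normalization, and 13 lower and 5 higher after centring. Of all genes, ICG had 2449 lower and 2690 higher after quantile normalization, and 2134 lower and 3447 higher after centring.

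**Figure D2:**
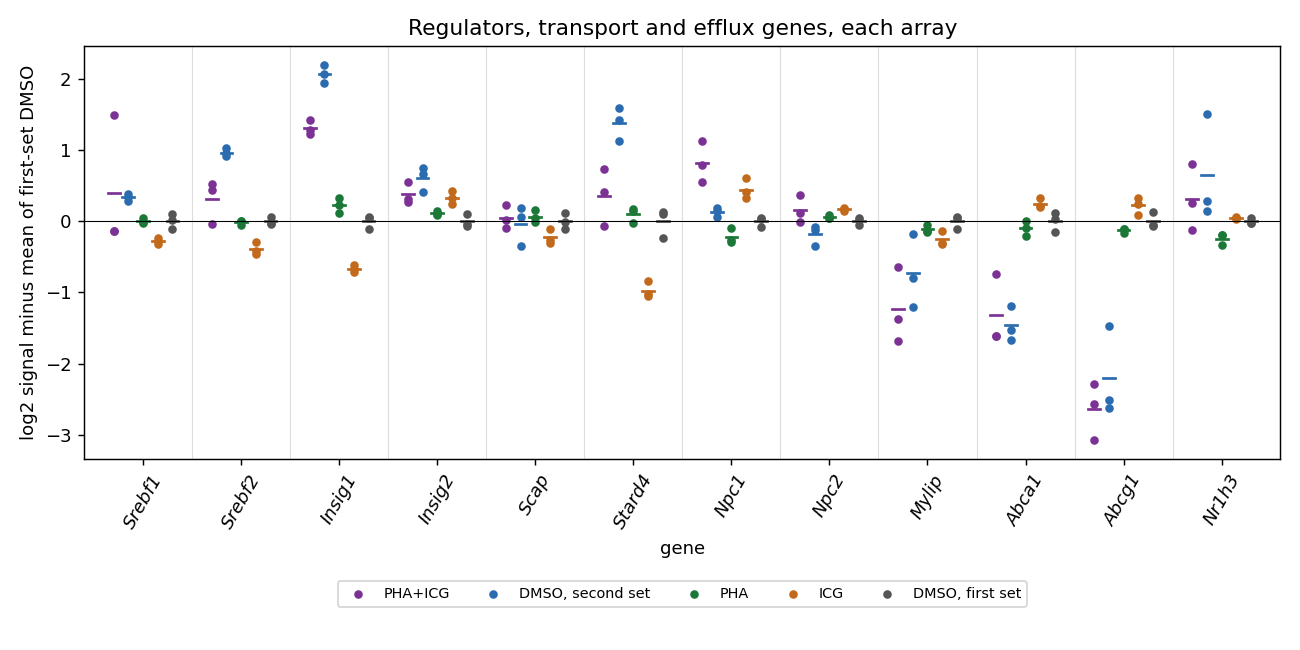
Log2 signal of regulators, transporters and efflux genes on each array (points, coloured by group; vertical axis, minus the mean of the first-set DMSO arrays) with the group mean (line), by gene along the horizontal axis. Insig1 follows the enzymes, while Abca1 and Abcg1 sit lower in both second-set groups, by 1.46 and 2.20 on the log2 scale between the DMSO groups.

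Set directly against ICG, PHA spheres had the higher enzyme signals. PHA and ICG share their DMSO arrays, so the arrays of both treatments were compared with each other. In PHA spheres 13 of 17 enzymes were higher than in ICG spheres and none was lower, also at an unadjusted p under 0.05. Over the 29 genes 18 were higher and 5 lower, where 13.7% of all genes were called higher and 13.4% lower. The enzymes' median difference was 0.66, against 0.00 over all genes.

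Idi1 differed most, at 1.77 ± 0.10 (3.41-fold, adjusted p = 3.74e-06), followed by Fdps at 1.57 ± 0.11 and Cyp51 at 1.41 ± 0.15. Stard4 (1.07 ± 0.11) and Insig1 (0.89 ± 0.07) were also higher in PHA spheres. Lower in PHA spheres than in ICG spheres were Npc1 (−0.66 ± 0.09, adjusted p = 0.00035), Abcg1 (−0.35), Abca1 (−0.34), Nr1h3 (−0.29) and Insig2 (−0.22). Hmgcs1 was not called (0.13 ± 0.09, adjusted p = 0.349), nor were Mvk, Ebp and Dhcr7. The Mvd call was lost without PHA replicate 2, that of Abca1 without PHA replicate 3 or ICG replicate 2, and those of Insig2 and Scap without any of several arrays. With the mean of a gene's probe sets, the differences of Abca1 (−0.12, adjusted p = 0.399), Insig2 (−0.05, adjusted p = 0.632) and Mvd (0.16, adjusted p = 0.0929) were no longer called. Macrophage markers were higher in PHA than in ICG spheres in 4 of 10 cases, fibroblast markers in 4 of 9 (1 lower) and epithelial markers in 3 of 8 (1 lower). Of 4 adipocyte markers Fabp4 was higher by 1.13 and 1 was lower, with a median of −0.01. The part of these markers was not tested.

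The combination went with a deep and broad fall of the enzymes. In PHA+ICG spheres 10 of 17 enzymes were lower than in second-set DMSO spheres and none was higher. At an unadjusted p under 0.05, 17 were lower and none higher, while 2426 of all 18193 genes passed it in either direction. Over the 29 genes 10 were lower and none higher (1 at that unadjusted p), where 1.54% of all genes were called lower and 0.478% higher. With replicate number as a block, since same-numbered arrays of this set deviated together, 14 enzymes were lower, and 17 of the 29 genes were lower and 1 higher. The block also raised the calls over all 18193 genes, from 368 to 1442, of which 349 were higher. The enzymes' median log2 change was −1.13, against 0.00 over all genes, and they ranged from −1.94 to −0.48. In 16 of the 17 all PHA+ICG arrays lay below all DMSO arrays, against 11% of all genes.

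These calls rest on few arrays. Without replicate 3 of the second-set DMSO spheres 3 of the 29 genes were called lower, without replicate 2 of them 4, and without PHA+ICG replicate 3 the count was 5. Calls over all genes fell as well, from 368 to 56, 67 and 89 in these fits, in that order. Among the enzymes, the calls of Idi1, Fdps and Nsdhl were made whichever array was omitted, that of Tm7sf2 was lost without DMSO replicate 3, and that of Fdft1 without DMSO replicate 2 or 3, and those of Lss, Mvd, Pmvk and Cyp51 without these or at least 1 PHA+ICG array. The count was 11 without replicate 1 of both groups, where 10 enzymes were again called. In that fit 886 of all genes were called, against 368 in the main fit. The PHA+ICG replicate 2 array had the flattest distribution, with an interquartile range of 3.28, against 3.58 to 3.86 on the other second-set arrays, and a Gapdh 3′ minus 5′ signal of 0.69, against 0.08 to 0.44; its part was not tested.

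Fdps fell most, with 9.65, 9.09 and 9.49 in PHA+ICG spheres, against 11.02, 11.53 and 11.52 in DMSO spheres. The groups were more than a unit apart, and the change of −1.94 ± 0.22 left 0.26 of the DMSO signal (adjusted p = 0.00745). Tm7sf2 had 6.82, 6.39 and 6.58, against 8.54, 8.02 and 8.48 (−1.75 ± 0.20, adjusted p = 0.00791). Fdft1 had 9.31, 9.02 and 9.55, against 10.68, 11.13 and 11.20 (−1.71 ± 0.21, adjusted p = 0.00943).

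For Tm7sf2 and Fdft1 the lowest PHA+ICG array was replicate 2, and neither gene's groups overlapped. Idi1 had 9.81, 9.66 and 9.52 in PHA+ICG spheres, against 11.08, 11.36 and 11.29 in DMSO spheres (−1.58 ± 0.16, adjusted p = 0.00672). Nsdhl had 9.10, 9.04 and 9.16 in PHA+ICG spheres, against 10.44, 10.77 and 10.50 in DMSO spheres (−1.47 ± 0.16, adjusted p = 0.00745).

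Cyp51 had 9.36, 9.40 and 9.68 in PHA+ICG spheres, against 10.17, 10.94 and 11.06 in DMSO spheres. The vehicle arrays were widely spread, and the adjusted p lay just under the threshold (−1.24 ± 0.25, adjusted p = 0.0493). Hmgcs1, which neither inhibitor alone moved past the threshold, had 11.15, 11.15 and 11.14 in PHA+ICG spheres, against 12.22, 11.90 and 11.98 in DMSO spheres. Its fall of 0.89 ± 0.16 was called (log2 change −0.89, adjusted p = 0.0308), but the call did not survive leaving out any one of the 6 arrays. Mvd (−1.27 ± 0.17), Lss (−1.26 ± 0.20) and Pmvk (−1.13 ± 0.18) were the other called enzymes, and a dimmer Lss probe set gave −1.19 (adjusted p = 0.0453).

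Other enzymes missed the threshold without the block. Sqle had 10.15, 9.49 and 10.03 in PHA+ICG spheres, against 10.65, 10.63 and 10.72 in DMSO spheres, with no overlap (−0.77 ± 0.20, adjusted p = 0.11, and 0.0235 with the replicate block). Msmo1 had 10.93, 9.69 and 10.96, against 11.31, 11.69 and 11.51 (−0.98 ± 0.33, adjusted p = 0.225, and 0.059 with the block). Sc5d had 9.56, 9.78 and 9.89, against 10.30, 10.63 and 10.29 (−0.66 ± 0.17, adjusted p = 0.111, and 0.0351 with the block).

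In Sqle and Msmo1 replicate 2 of PHA+ICG was the array that stood lowest. Hsd17b7 (−0.83, adjusted p = 0.013) and Dhcr7 (−0.60, adjusted p = 0.0432) were also called with the block alone. Mvk (−0.49) and Ebp (−0.48) were called in neither fit.

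No regulator, transporter or efflux gene was called in PHA+ICG spheres without the block, where 3 were lower and 1 higher at an unadjusted p under 0.05. Insig1 had 9.42, 9.47 and 9.61 in PHA+ICG spheres, against 10.14, 10.25 and 10.39 in DMSO spheres. It lay at the threshold (−0.76 ± 0.15, adjusted p = 0.0501) and passed it with the block (adjusted p = 0.0135). Stard4 had 7.22, 6.75 and 7.54, against 7.94, 8.23 and 8.40 (−1.02 ± 0.23, adjusted p = 0.0733, and 0.00792 with the block).

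Srebf2 showed −0.65 (adjusted p = 0.144, and 0.0414 with the block). Npc1 had 10.48, 10.82 and 10.24 in PHA+ICG spheres, against 9.83, 9.75 and 9.88 in DMSO spheres, above on every array (0.69 ± 0.18, adjusted p = 0.119, and 0.0421 with the block). Srebf1 had 11.78, 10.15 and 10.15 in PHA+ICG spheres, against 10.67, 10.57 and 10.62 in DMSO spheres, so replicate 1 alone was above the vehicle (0.07 ± 0.41). Without replicate 1 of both groups it was −0.45 ± 0.18 (adjusted p = 0.24).

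The exporters followed replicate 1 as well. Abcg1 had 9.44, 9.14 and 8.64 in PHA+ICG spheres, against 10.25, 9.20 and 9.10 in DMSO spheres, and the groups overlapped (−0.44 ± 0.33, adjusted p = 0.712). Abca1 had 11.91, 11.05 and 11.05, against 11.47, 10.99 and 11.13 (0.14 ± 0.26, adjusted p = 0.933). None of the 10 macrophage markers was called here, though all lay below 0 (median −0.88), and of the 9 fibroblast markers 1 was lower. None of the 8 epithelial markers was called, though all lay below 0 (median −0.90; 4 lower at an unadjusted p under 0.05), with means of 8.55, 7.16 and 7.24 in PHA+ICG spheres, against 9.62, 8.55 and 8.59 in DMSO spheres. Of 4 adipocyte markers Fabp4 was called lower (−2.35 ± 0.28, adjusted p = 0.00817), while 2 lay above 0 and 2 below (median −0.13). The part of these in the enzymes' fall was not tested.

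Scaling changed the balance of calls here too: 23.6% of all calls were higher as deposited, 35.7% after quantile normalization and 33.7% after median centring. The 29 genes then gave 9 and 8 lower calls, in that order, and none higher in either. Of all 18193 genes, 234 were lower and 130 higher after quantile normalization, and 214 lower and 109 higher after centring.

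**Figure D3:**
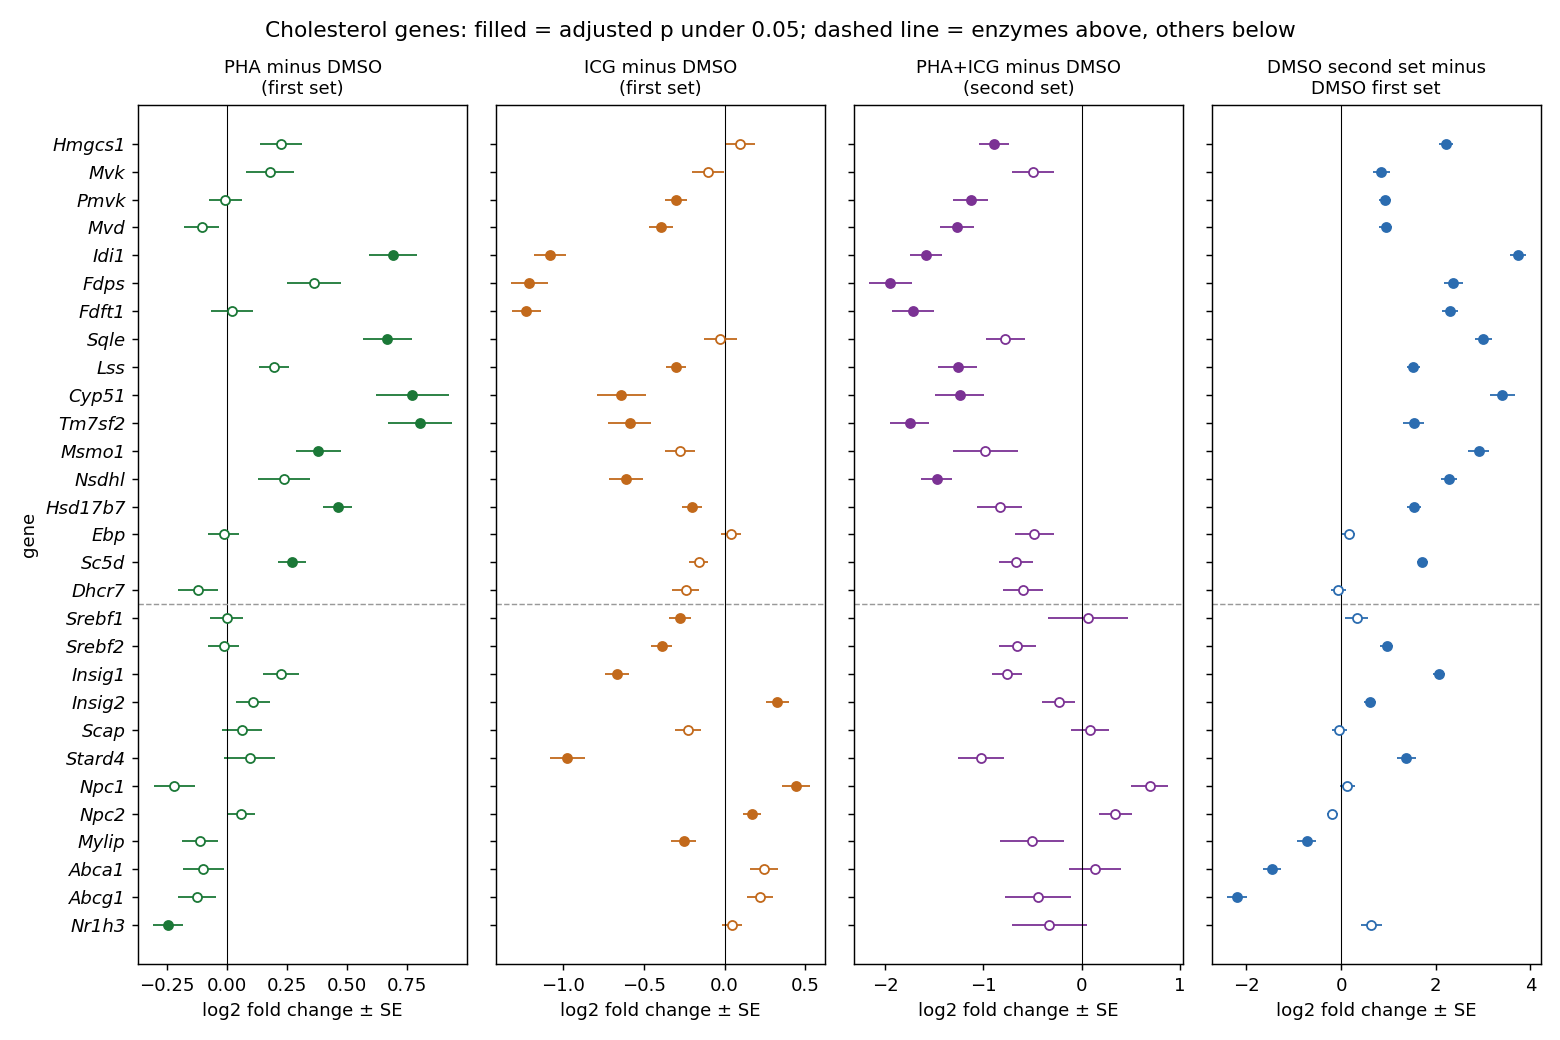
Log2 difference (horizontal axis) ± SE for each cholesterol gene (vertical axis), in 4 panels for PHA, ICG and PHA+ICG against DMSO of their own set and for the second-set against the first-set DMSO spheres; filled points passed an adjusted p of 0.05 and the scales differ between panels. All 17 enzymes lie left of 0 for PHA+ICG (median −1.13); the enzymes' median is −0.30 for ICG, 0.24 for PHA and 1.72 between DMSO groups.

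The combination can be set against each inhibitor only across sets, through each treatment's difference from its own DMSO spheres. The second-set DMSO arrays enter both this contrast and that between the DMSO groups, and they started higher in the enzymes, so the values stand side by side: Idi1 averaged 9.66 in PHA+ICG spheres, 11.24 in second-set DMSO spheres, 8.20 in PHA spheres, 6.43 in ICG spheres and 7.51 in first-set DMSO spheres. The enzyme signal under the combination thus stayed above that of first-set vehicle for Idi1, while for Tm7sf2 it averaged 6.60 in PHA+ICG spheres and 6.81 in first-set DMSO spheres.

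Against the effect of PHA, the effect of PHA+ICG was lower in 14 of 17 enzymes, with a median difference of −1.36. Over the 29 genes 16 were lower (Insig1 and Stard4 besides the enzymes) and 1 higher, where 1.66% of all genes were called lower and 1.08% higher. The Tm7sf2 difference was −2.55 ± 0.32, that of Fdps −2.31 ± 0.29 and that of Idi1 −2.27 ± 0.24 (adjusted p = 0.000773, 0.000773 and 0.000187). Npc1 was the higher one (0.91 ± 0.22, adjusted p = 0.0391). Without replicate 3 of the second-set DMSO spheres 10 genes were lower, and the calls of Npc1, Stard4 and Msmo1 were lost without any of 7 or more single arrays. Calls over all genes fell from 499 to 149 without that DMSO replicate.

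Against the effect of ICG, the difference was called for Lss alone (−0.95 ± 0.19, adjusted p = 0.0456), where 0.264% of all genes were called lower and 0.121% higher. At an unadjusted p under 0.05, 14 of the 29 genes were lower and none higher. Of all 18193 genes, 1286 passed that unadjusted p in either direction. With the replicate block Lss, Hmgcs1 (−0.99, adjusted p = 0.0309), Pmvk (−0.83, adjusted p = 0.0329) and Mvd (−0.87, adjusted p = 0.034) were lower. That block raised the calls over all genes from 70 to 197, of which 46 were higher. The Lss call was lost without any one of 13 arrays. The enzymes' median difference was −0.70, and a p that misses the threshold does not show that the effects were alike.

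**Figure D4:**
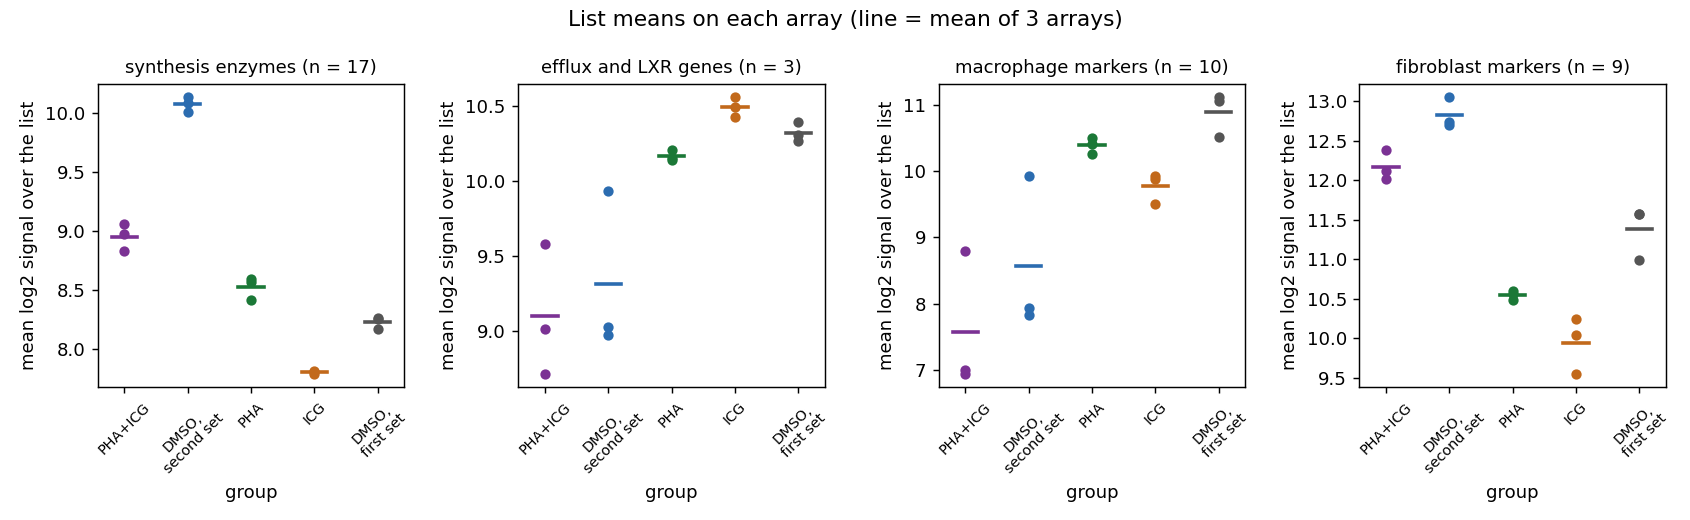
Mean log2 signal per array (vertical axis; points, with the group mean as a line) of the 17 enzymes, the 3 efflux and LXR genes, 10 macrophage and 9 fibroblast markers, by group along the horizontal axis. The enzymes averaged 8.83 to 9.06 in PHA+ICG spheres and 10.01 to 10.13 in second-set DMSO spheres, and the macrophage markers were highest in first-set DMSO spheres, at 10.52 to 11.12.

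Of 28 other genes of cholesterol handling, 21 were measured. In PHA+ICG spheres none was called, with 3 higher and 1 lower at an unadjusted p under 0.05. Of all 18193 genes, 2426 passed that unadjusted p in either direction. In PHA spheres 1 was higher (4.76%) and 2 lower (9.52%), close to the shares of all genes: Acss2, which makes acetyl-CoA from acetate, was higher by 0.78 ± 0.07 (adjusted p = 0.000208), and Ch25h, a cholesterol hydroxylase gene, and Rxra, the partner of LXR, were lower at −0.76 and −0.27.

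In ICG spheres 3 were higher (14.3%) and 4 lower (19%), against 11.9% and 15% of all genes. Acss2 (0.53), Mbtps2, a protease that cuts SREBP (0.52), and the lipoprotein receptor gene Vldlr (0.44) were higher. Lrp8 (−0.46), the prenyl transferase gene Ggps1 (−0.38), Osbp, an oxysterol-binding protein gene (−0.28), and Acly, a source of acetyl-CoA (−0.23), were lower. Acss2 thus rose with both PHA and ICG, while no synthesis enzyme was called higher with both.

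Between the DMSO groups 3 were higher (14.3%) and 6 lower (28.6%), against 11.8% of all genes each way. Acss2 (2.15), Vldlr (0.79) and Acly (0.70) were higher in the second set. Apoe, the lipoprotein that carries exported cholesterol and is abundant in macrophages, was lower at −2.24 ± 0.54 (adjusted p = 0.00622). Nceh1, Rxra, Dhdds, Stard3 and Cyp27a1 were lower as well, at −0.72 to −0.46.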

How the data were processed

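The deposited values are log2 signals of 45101 probe sets on 15 arrays, made by the authors from total RNA; per the submitters' processing notes MAS5 and RMA were used, with roles and versions not given in the sources used here, and whether both sets were normalized together is likewise not given. The labels give 5 groups of 3 arrays, spread over 2 sets, and 3 arrays a group limit the precision.

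Of the probe sets, 34945 had 1 gene symbol in the platform annotation, 932 had several, 9160 had none and 64 were controls; only the first kind was used. For 9010 genes with several probe sets the brightest by mean was taken, which gave 18193 genes. No 2 arrays were identical (highest correlation 0.9979).

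Each treatment was compared with DMSO of its own set, and PHA with ICG, by limma 3.58.1 in R 4.3.3, fitted on the arrays of that set alone. The residual variance of the second set was 6.32 times that of the first. Contrasts across sets used all 15 arrays with array weights by set. Calls needed a Benjamini-Hochberg adjusted p under 0.05 over all genes, and the fits were tested on simulated data. Tables were prepared with pandas 2.3.3 and numpy 2.4.6 in Python 3.11.15, and figures with matplotlib 3.10.9.

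Same-numbered arrays of the second set had correlated deviations from their group means (0.61, 0.36 and 0.28), all above 0.1. Its numbers were therefore taken as pairs in the fit with a replicate block, and not in the main fit. Differently numbered replicates 2 and 3 correlated about as much (0.35 and 0.24), so the numbers mainly set replicate 1 apart. Members, lists, tests and alternatives were chosen with earlier results of these data known. Values on each array are given for the 12 called members with the largest change in any comparison with DMSO or between DMSO groups. Those of Stard4, Npc1, Srebf1, Abca1 and Nr1h3 were added, chosen after their values were seen. Alternatives covered the samples in the fit, the replicate block, 2 scalings, a filter on dim probe sets, the mean of a gene's probe sets, an intensity trend and leaving out each array.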

Additional observations from a re-analysis of the deposited data

How the results depend on the processing

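Across the 7 comparisons, no called value turned its direction under any alternative. Of 3792 values of single genes under the alternatives, 68 had the other sign, all of them uncalled in both fits, such as Lss with PHA (−0.07 with mean probe sets), Abca1 with ICG (−0.00 with mean probe sets) and Srebf1 with PHA+ICG (−0.45 without replicate 1 of both groups). In leave-one-out fits 69 of 99 calls of cholesterol genes were made again whichever array was left out. The counts below are of the 29 genes. Between the DMSO groups the counts stayed within 1.5 times of 19 higher and 3 lower in all alternatives. One unweighted fit of all 15 arrays gave, for PHA, 2 higher and 0 lower; for ICG, 6 lower and 0 higher; for PHA against ICG, 1 lower; for PHA+ICG, 19 lower and 2 higher; and 6 lower for the PHA+ICG effect less the ICG effect. It shares 1 spread between sets. With the replicate block PHA had 0 lower, PHA+ICG 17 lower and 1 higher, and the PHA+ICG effect less the ICG effect 4 lower; the first set's numbers share only a number (correlations between −0.26 and 0.12), and the block changed no other count by over 1.5 times. Nr1h3, the one gene lower with PHA, was not called under quantile normalization, median centring and the intensity trend (0 lower in each), and was not tested under the dim filter, where 0 were lower; 2 genes were lower with mean probe sets. ICG had 5 genes higher with median centring, the dim filter or the trend. PHA against ICG had 3 lower with mean probe sets. Mean probe sets also ended the calls of Msmo1 (0.21) and Sc5d (0.15) with PHA, of Hsd17b7 (−0.08), Insig2 (0.20) and Npc2 (0.04) with ICG, and of Lss (−0.49) in the PHA+ICG effect less the ICG effect. The dim filter, which tests 28 of the 29 genes among 9096, left 0 higher for the PHA+ICG effect less the PHA effect and 0 lower less the ICG effect, where quantile normalization and mean probe sets gave 3 and the trend 2. The cause of these changes was not tested.

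Leaving out single arrays gave, for PHA, 4 to 9 higher and 0 to 1 lower; for ICG, 12 to 16 lower and 2 to 4 higher; for PHA against ICG, 17 to 19 higher and 3 to 5 lower; for PHA+ICG, 3 to 9 lower and 0 higher; between DMSO groups, 18 to 21 higher and 2 to 3 lower; for the PHA+ICG effect less the PHA effect, 10 to 16 lower and 0 to 1 higher; less the ICG effect, 0 to 2 lower and 0 higher. Leaving out replicate 1 of both second-set groups, chosen after seeing the data, gave 11 lower for PHA+ICG.

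Over all genes, calls for PHA (1858) became 182 in the unweighted fit and 1202 with the block, with 1005 to 1790 when 1 array was left out. Those for ICG (4896) became 1255 and those for PHA against ICG (4939) became 1463 in the unweighted fit. For PHA+ICG (368) they became 2413 in the unweighted fit, 1442 with the block, 56 to 389 without 1 array and 886 without replicate 1 of both groups. Between DMSO groups (4283) they fell to 2442 without replicate 3 of the second-set DMSO spheres. For the PHA+ICG effect less the PHA effect (499) they became 860 unweighted, 958 with the block, 747 after quantile normalization, 331 with the dim filter, 720 without replicate 1 of both groups, and 149 to 719 without 1 array, lowest without replicate 3 of the second-set DMSO spheres; less the ICG effect (70) they became 160, 197 and 21 unweighted, with the block and with the dim filter, and 1 without replicate 3 of the second-set DMSO spheres.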
